A study of Mus musculus with 64 samples.

Results

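The 10 genes described here encode enzymes that build purine and pyrimidine nucleotides from small precursors. They are Ppat, Gart, Pfas, Paics, Adsl and Atic of the purine route, Impdh2 of its guanine branch, and Cad, Dhodh and Umps of the pyrimidine route. They were chosen by symbol, as nucleotide synthesis enzymes known to respond to Myc, and each of the 10 symbols matched 1 of the 36332 distinct gene IDs of the deposited table. RNA was taken from the omental fat, the liver and the skeletal muscle of mice in which Myc was inactivated (KO) and of wild-type mice (WT). KO mice came from a cross on B6.129 and B6.129S6 stock. It joined the allele Gt(ROSA)26Sortm1(cre/ERT2)Tyj, a tamoxifen-activated Cre recombinase expressed body-wide from the Rosa26 locus, with Myctm2Fwa, a Myc gene that Cre can excise. WT mice were labelled C57/B6. Both genotypes carry the same treatment label of 5 daily intraperitoneal tamoxifen injections (75 mg/kg, in corn oil), begun at weaning once a mouse weighed at least 15 g. Mice were labelled 5 or 20 months of age, although the older library codes contain 18. The 12 groups hold 64 libraries: 6 KO and 6 WT at 5 months and 5 KO and 5 WT at 20 months in adipose tissue and in liver, and 4 KO and 6 WT at 5 months and 5 KO and 5 WT at 20 months in muscle. Libraries are named by their label code. Nothing in the labels says that the libraries of a group came from separate mice, so the p-values measure the spread between these libraries.

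Purine synthesis assembles the ring on a ribose phosphate. Ppat (amidophosphoribosyltransferase) makes the first committed step. Gart is a trifunctional enzyme of the early steps, Pfas (formylglycinamidine ribonucleotide synthase) acts between reactions that Gart catalyses, and Paics joins the next pair of reactions in one protein. Adsl (adenylosuccinate lyase) acts once in ring assembly and again where IMP is turned into AMP, and the bifunctional Atic closes the ring to give IMP. Impdh2 (IMP dehydrogenase) opens the branch to GMP. In the pyrimidine route, Cad carries the first reactions on one long polypeptide, Dhodh oxidises dihydroorotate in the mitochondrion, and Umps makes UMP. Growing cells run these routes at a high rate, and resting tissues also draw on salvage of existing bases and nucleosides. Myc is known to bind near the starts of several of these genes in dividing cells, often at an E-box with the letters CACGTG.

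The promoters were searched for those letters, which read the same on both strands, to show what the genes share apart from function. The window ran from 250 bases before to 50 bases after the gene start in RefSeq's table for build GRCm38.p6, the build the submitters' processing notes name. An entry was present for 8 of the 10 genes, all but Pfas and Dhodh, and 3 of those 8 held the motif. Of all 32851 promoter entries 7.15% held it, and of the 27025 genes with an entry 8.09% did. Each of the 3 stretches below is 30 bases of the plus strand with the E-box in capitals, at chr1:71557137-71557166 for Atic, chr5:76951087-76951116 for Paics and chr9:108560314-108560343 for Impdh2.
Atic: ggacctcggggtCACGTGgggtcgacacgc
Paics: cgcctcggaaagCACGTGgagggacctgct
Impdh2: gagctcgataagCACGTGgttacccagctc
The motif's first base lay 7 bases before the start of Atic, 203 before that of Paics and 110 before that of Impdh2. A match describes the letters and shows no binding. The motif-bearing genes are set beside the others in the KO comparison below.

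The gene bodies lie at chr1:71557156-71579403 (Atic), chr5:31054620-31078479 (Cad), chr5:76913249-76951578 (Ppat), chr5:76951302-76967509 (Paics), chr8:109593244-109608699 (Dhodh), chr9:108560436-108565577 (Impdh2), chr11:68985701-69008460 (Pfas), chr15:80948490-80970947 (Adsl), chr16:33954782-33967038 (Umps) and chr16:91621395-91646972 (Gart). Ppat and Paics are neighbours on opposite strands whose gene models overlap by 277 bases. The use of strand in counting is not given in the sources used here, so reads from those 277 bases cannot be assigned with certainty to either gene.

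Values are those of the deposited table, called CPM after its header. They are read counts times a factor per library, and the factor differs between tissues, as described with the tissue comparison. Whole reads could be recovered and totalled 15.4 to 28.5 M per library. The lowest count of any of the 10 genes in any library was 60 reads. Liver libraries held 76582 to 151488 CPM of albumin (Alb), muscle libraries 24874 to 42135 CPM of Acta1 and adipose libraries 610 to 2951 CPM of Adipoq, so the defining markers were present in each labelled tissue. Myc fell in KO at 5 months in adipose tissue (5.76 ± 2.91 against 17.7 ± 5.11 CPM, SD, n = 6 and 6, limma adjusted p = 0.017) and in liver (2.59 ± 1.06 against 19.6 ± 10.3 CPM, n = 6 and 6, adjusted p = 0.00093). It did not pass the test in young muscle (10.2 ± 5.21 against 29.1 ± 27.1 CPM, n = 4 and 6). At 20 months no tissue passed it (SD, n = 5 and 5): adipose tissue was at 7.36 ± 1.76 in KO and 11.97 ± 3.03 CPM in WT (adjusted p = 1.0) and muscle at 5.98 ± 3.83 and 7.91 ± 3.21 CPM (0.663). Older liver was at 2.11 ± 0.707 and 5.87 ± 0.975 CPM (log2 difference −1.16, adjusted p = 0.547), and its highest KO library (2.92 CPM) lay below its lowest WT library (5.36 CPM). 5 libraries held more than 10 CPM of 15 summed epididymis transcripts: adipose KO libraries K5F4284, K5F5218 and K5F5248, adipose WT library W5F5299 and muscle WT library W5S5299, all at 5 months. 12 libraries, all at 5 months, held 143 to 432 CPM of Xist, and the other 52, the older ones included, held at most 0.33 CPM. The 12 are called the Xist libraries. They held 0.0 CPM of summed Y-linked transcripts, and the other 52 held 84.9 to 336.9 CPM. By these transcripts the 12 are female and the others male. Each age comparison therefore sets young libraries of both sexes against older male ones. WT muscle library W18S42 at 20 months held 2674 CPM of summed hepatocyte transcripts, against at most 42.5 in any other muscle library. Results that these libraries decide are given with and without them.

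The first comparison set the tissues of the young WT mice side by side. Per kilobase of transcript, Paics had the highest mean of the set in each tissue, and the genes then parted by tissue. Without that division Adsl stood above Paics in muscle, at a mean of 153.5 against 122.9 CPM. Liver held more Paics than the other tissues, muscle held far more Adsl, and muscle held little Umps. Levels of different genes are compared per kilobase of the principal transcript. On that scale Paics stood at 40.0 CPM per kb in the adipose libraries, 116 in liver and 49.5 in muscle. Impdh2 followed in adipose tissue (28.3) and liver (31.5), whereas in muscle Adsl came second at 41.4 CPM per kb, ahead of Impdh2 at 32.6. The bottom of the order was held by Ppat (1.79), Pfas (2.03) and Cad (3.01) in adipose tissue, by Cad (1.71) and Pfas (1.79) in liver, and by Cad (1.601) and Umps (1.80) in muscle. The first enzyme of the purine route and the first of the pyrimidine route were thus among the less abundant transcripts of their own routes on this scale.

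**Figure D1:**
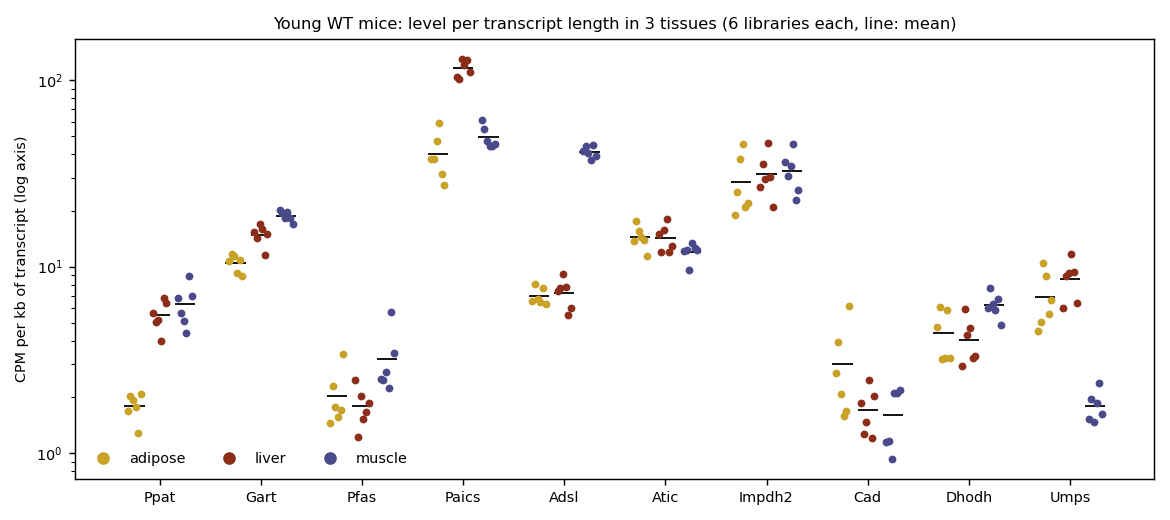
Mean level of each gene per kilobase of its principal transcript in young WT adipose tissue, liver and muscle (CPM per kb, log axis). Paics is highest in each tissue, at 40.0, 116 and 49.5, and Adsl and Umps are the genes whose muscle libraries overlap no library of either other tissue.

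In liver, Paics alone made up 52.4% ± 3.30 (SD, n = 6) of the reads of the 10 genes, against 29.7% ± 4.93 in adipose tissue and 23.9% ± 2.49 in muscle. Adsl held the largest share in muscle, at 29.9% ± 1.79. The Paics level was lowest 253, median 287 and highest 321 CPM in the liver libraries, 68.3, 93.5 and 146 CPM in the adipose libraries and 109.9, 115 and 151 CPM in the muscle libraries. No liver library overlapped the other tissues. Of all genes, 48.7% had no overlap between adipose tissue and liver, 57.0% between liver and muscle and 49.2% between adipose tissue and muscle. Paics was higher in liver than in muscle (log2 difference 1.22, SE 0.157, limma adjusted p = 7.88e-07) and lower in adipose tissue than in liver (log2 difference −1.56, SE 0.157, adjusted p = 3.41e-08). Adsl, which acts in the purine nucleotide cycle of muscle as well as in synthesis, was at lowest 138, median 153 and highest 168 CPM in muscle. It reached at most 33.8 CPM in liver and 29.9 CPM in adipose tissue. Its log2 difference was −2.53 for adipose tissue against muscle (SE 0.118, adjusted p = 4.5e-13) and −2.49 for liver against muscle (SE 0.118, adjusted p = 1.98e-13). Umps, the last enzyme of UMP synthesis, was at 23.9 ± 8.14 CPM in the adipose libraries, 29.99 ± 7.36 in liver and 6.27 ± 1.18 in muscle (SD, n = 6 each). The highest muscle library, at 8.29 CPM, lay below the lowest adipose library at 15.8 CPM and the lowest liver library at 20.9 CPM. Ppat was low in adipose tissue at 7.14 ± 1.18 CPM and did not pass the test between liver (21.8 ± 3.94) and muscle (25.2 ± 6.44), with a log2 difference of −0.18 (SE 0.169, adjusted p = 0.344).

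Counted over all 10 genes, adipose tissue and liver differed in 3, all lower in adipose tissue (Ppat, Paics and Gart), where 71.7% of all genes tested were called. Adipose tissue and muscle differed in 7 of the 10, with Umps and Cad higher in adipose tissue and Adsl, Ppat, Gart, Pfas and Dhodh lower, beside 71.2% of all genes. Liver and muscle differed in 6, with Umps and Paics higher in liver and Adsl, Pfas, Dhodh and Gart lower, beside 74.7% of all genes. A call here is an adjusted p under 0.05 in limma. The call for Cad in adipose tissue against muscle (log2 difference 0.76, adjusted p = 0.0277) was lost without WT adipose library W5F5299, which held epididymis transcripts and 43.8 CPM of Cad (log2 difference 0.53, adjusted p = 0.0801). It was also lost without adipose library W5F5006 (0.0660) or muscle library W5S5004 (0.0589), W5S5007 (0.0580) or W5S5041 (0.0710). The Pfas call was lost without adipose library W5F5005 (0.0659), W5F5042 (0.0590) or W5F5277 (0.0521) or muscle library W5S5277 (0.0818) or W5S5299 (0.0549), and that of Dhodh without adipose library W5F5041 (0.0679), W5F5042 (0.0659) or W5F5299 (0.0652) or muscle library W5S5007 (0.0643). Paics passed the test for adipose tissue against muscle without adipose library W5F5041 (0.0376) or W5F5042 (0.00731), and Atic without adipose library W5F5299 (0.0335). For adipose tissue against liver, leaving out adipose library W5F5041 added Cad (0.0491) and Umps (0.0367), and Cad was also called without adipose library W5F5042 (0.0250) or W5F5277 (0.0305) or liver library W5L5042 (0.0371). With all libraries, Impdh2 and Atic passed the test between no pair of tissues on the deposited scale. The 3 Impdh2 means of 52.6 ± 19.9, 58.5 ± 15.8 and 60.7 ± 15.2 CPM for adipose tissue, liver and muscle lay within 1 SD of each other.

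These directions rest on the deposited scale. With each library rescaled to one common total (plain CPM), the median log2 difference of all genes moved by 0.89 for adipose tissue against liver, 0.65 for adipose tissue against muscle and −0.23 for liver against muscle. On that plain scale Gart was higher in adipose tissue than in liver (0.63) and Gart, Pfas and Dhodh were higher in adipose tissue than in muscle (0.03, 0.23 and 0.30), the reverse of the deposited scale. Every gene of the set was called there for adipose tissue against liver, beside 13287 of 15714 genes tested. Impdh2 (0.94) and Atic (1.14) were among them, where the median of all genes was 0.96. The scales differ by a factor per library, so subtracting the median of all genes removes most of their difference by construction. Relative values therefore say where a gene stood among all genes and are no check of the scale. Relative to that median, the 3 and the 7 calls had the same sign on both scales. Relative Paics was −1.64 on the deposited and −1.39 on the plain scale for adipose tissue against liver. Relative Adsl was −2.73 and −2.53 for adipose tissue against muscle.

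**Figure D2:**
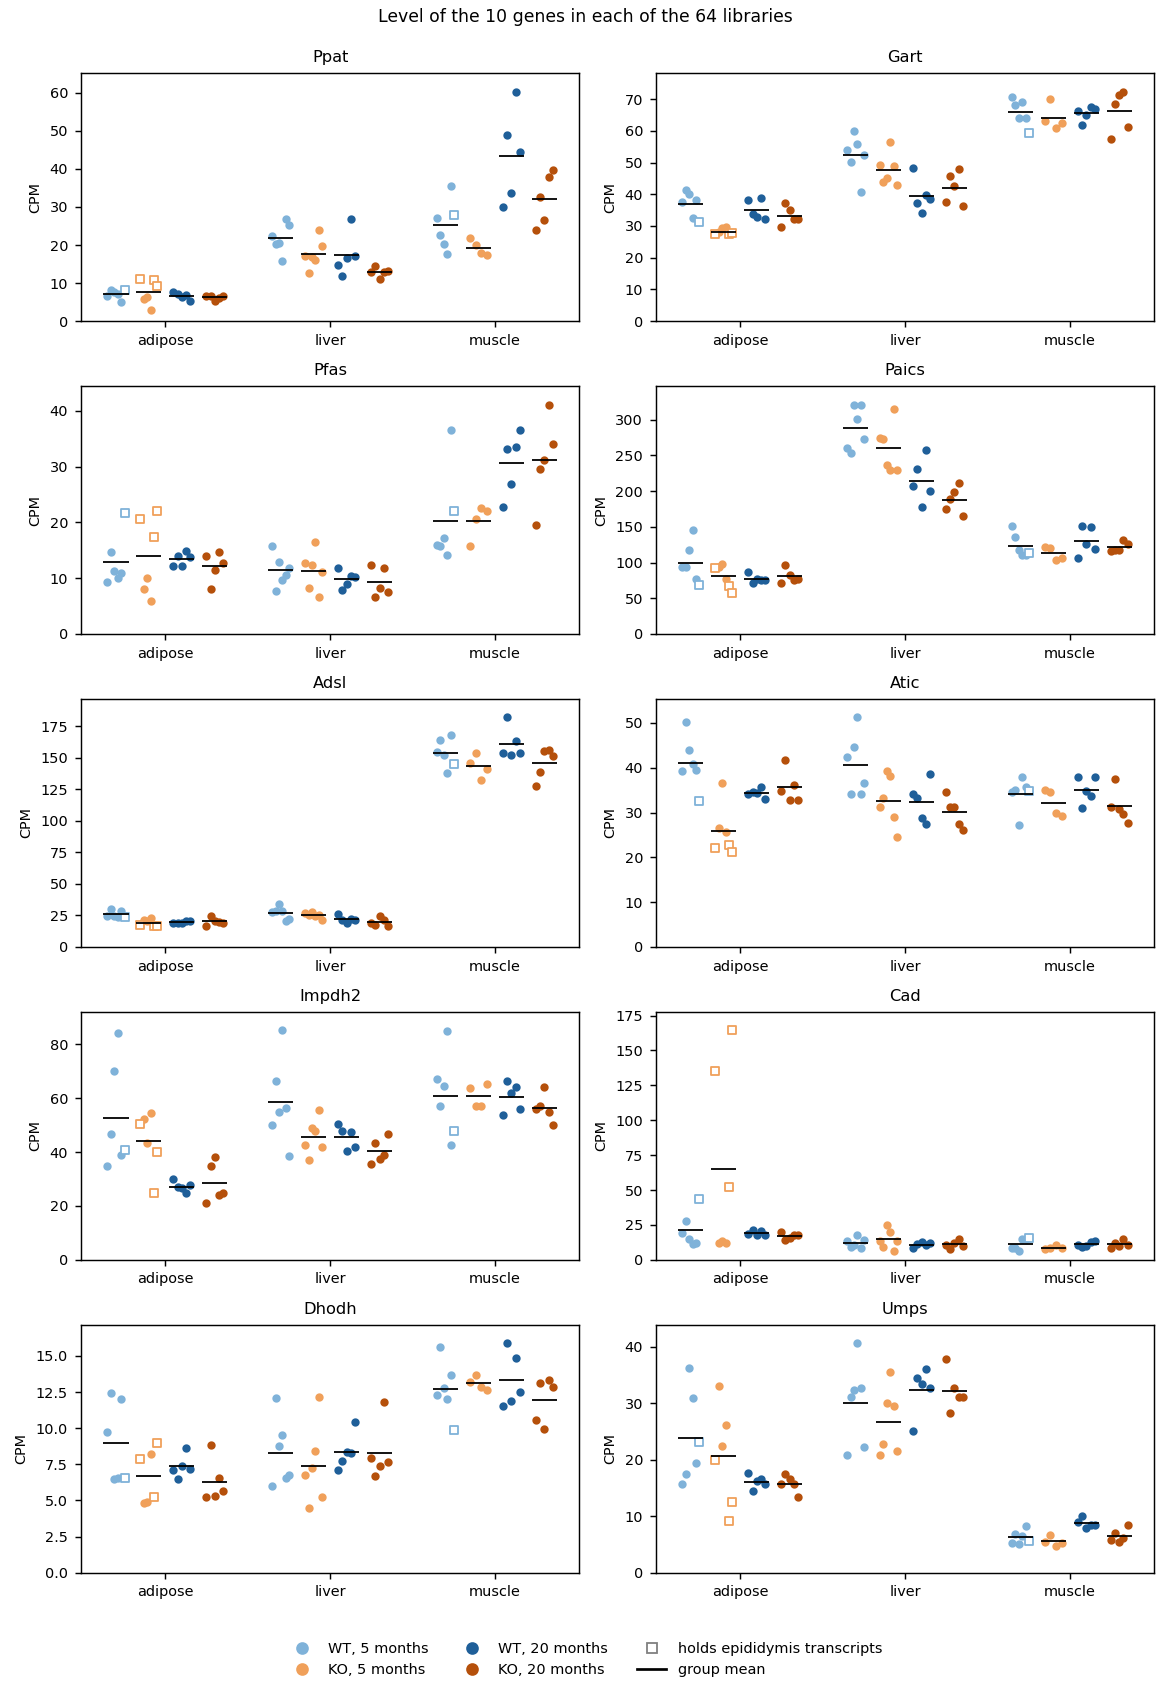
CPM of each of the 10 genes in each of the 64 libraries, grouped by tissue, age and genotype; black lines are group means and open squares are libraries with epididymis transcripts. The KO and WT points of most groups overlap, and the open squares stand highest for Cad in young adipose tissue, at 43.8 to 164 CPM.

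The second question was whether the genes differ where Myc is inactivated. KO and WT mice also differed by label in stock, and the KO cross carried the Cre allele. Effects of stock, of Cre and of the loss of Myc therefore cannot be told apart in any KO comparison. Over 3 tissues and 2 ages, 1 of the 10 genes passed the test, in 1 of the 6 comparisons: Atic, the enzyme that closes the purine ring, fell in young KO adipose tissue. It was at lowest 21.1, median 24.1 and highest 36.6 CPM in the 6 KO libraries and at lowest 32.5, median 40.2 and highest 50.2 CPM in the 6 WT libraries. 5 of the 6 KO libraries lay below every WT library, and KO library K5F5116 (36.6 CPM) lay above WT library W5F5299 (32.5 CPM). The means were 25.8 ± 5.73 and 41.1 ± 5.85 CPM (SD, n = 6 and 6), a log2 difference of −0.66 (SE 0.123, limma adjusted p = 0.0322). Among all genes tested in this comparison 0.105% were called.

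2 further purine genes separated the young adipose groups without passing the test. Gart was at lowest 27.3, median 27.95 and highest 29.5 CPM in KO and at lowest 31.4, median 37.9 and highest 41.2 CPM in WT. No KO library reached the lowest WT library, and the KO spread (28.2 ± 0.939) was narrower than that of WT (36.8 ± 4.06). The Gart log2 difference was −0.37 (SE 0.0918, adjusted p = 0.141). Adsl was at lowest 16.4, median 18.97 and highest 23.2 CPM in KO and at lowest 23.4, median 24.5 and highest 29.9 CPM in WT, and these groups did not overlap either. Its log2 difference was −0.41 (SE 0.110, adjusted p = 0.175). Over all genes in young adipose tissue, 0.301% had KO and WT groups that did not overlap and 11.8% had an unadjusted p under 0.05; of the 10 genes, 2 did not overlap and 3 had an unadjusted p under 0.05 (Atic, Gart and Adsl, all lower in KO). DESeq2 on the recovered reads called these 3 genes, beside 2.13% of all genes, and so did limma without the Xist libraries, beside 3.68%. That limma fit kept 4 KO libraries, 3 of them with epididymis transcripts, and 4 WT libraries, 1 of them with such transcripts. It is therefore no check apart from those transcripts, which are described next. edgeR called 1, Atic, beside 0.063%. In bulk tissue, less RNA per cell and fewer cells of a type that holds the RNA cannot be told apart.

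The epididymis transcripts moved with these values. Their sum was 0.173 to 7258 CPM in the young adipose KO libraries and 0.141 to 961 CPM in the WT libraries, and 3 of 6 KO libraries but 1 of 6 WT libraries exceeded 10 CPM. Atic was at 21.9 ± 0.796 CPM in the 3 KO libraries with such transcripts, at 29.6 ± 6.11 CPM in the 3 without, and at 42.8 ± 4.56 CPM in the 5 WT libraries without. With the 4 libraries left out, Atic had a log2 difference of −0.53 (adjusted p = 0.130), Gart −0.37 (0.204) and Adsl −0.27 (0.379), and none was called. All 3 kept their sign. The part of this tissue in the differences was not tested beyond leaving those libraries out. None of the cell markers of the following 4 lists was called, and each list lay to one side of 0. All 7 adipocyte markers had a log2 difference below 0 (median −0.73), with a summed level of 8911 to 33466 CPM in KO and 17245 to 31895 CPM in WT. The lowest KO sums were those of the libraries with epididymis transcripts, K5F4284 (8911), K5F5248 (9626) and K5F5218 (10887 CPM). The other KO libraries held 16390, 19419 and 33466 CPM. All 15 proliferation markers were also below 0 (median −0.45), at 20.3 to 41.1 and 23.2 to 181 CPM. WT library W5F5006 alone held 181 CPM, and the other WT libraries held 23.2 to 45.7 CPM. All 7 T cell markers (median 0.60) and all 6 macrophage markers tested (0.30) were above 0, at 17.1 to 31.5 against 6.71 to 17.9 CPM and at 636 to 1940.1 against 809 to 1223 CPM. The part of these cells in the Atic, Gart and Adsl values was not tested. The Atic call was also lost in a fit of the 2 groups alone (adjusted p = 0.651), and without any of 7 single libraries: KO K5F4284 (0.101) and K5F5248 (0.0979), and WT W5F5005 (0.0952), W5F5006 (0.0854), W5F5041 (0.0823), W5F5042 (0.0687) and W5F5277 (0.0821).

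Cad, which starts pyrimidine synthesis, showed the widest spread of the set. KO libraries K5F4284, K5F5218 and K5F5248 held 135, 52.0 and 164 CPM, and the 3 KO libraries without epididymis transcripts held 11.7, 12.3 and 13.7 CPM. WT library W5F5299 held 43.8 CPM, and the other WT libraries 11.3 to 27.99 CPM. All 4 high values were thus in libraries with epididymis transcripts. The group means of 64.9 ± 68.2 in KO and 21.5 ± 12.5 in WT gave a log2 difference of 0.91 (SE 0.527, adjusted p = 0.496). Without those 4 libraries the log2 difference was −0.34. Pfas showed the same split, with 20.0 ± 2.31 CPM in the 3 KO libraries with and 7.97 ± 2.05 in the 3 without epididymis transcripts. Its log2 difference of 0.02 (adjusted p = 0.988) became −0.45 without the 4 libraries. Ppat stood at 10.3 ± 1.01 against 5.06 ± 1.81 CPM in the same split, and its log2 difference of 0.01 became −0.42. Umps ran the other way, at 13.9 ± 5.49 CPM in the 3 KO libraries with and 27.3 ± 5.34 in the 3 without, and its log2 difference of −0.26 became 0.23. None of these 4 genes was called with or without the 4 libraries.

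**Figure D3:**
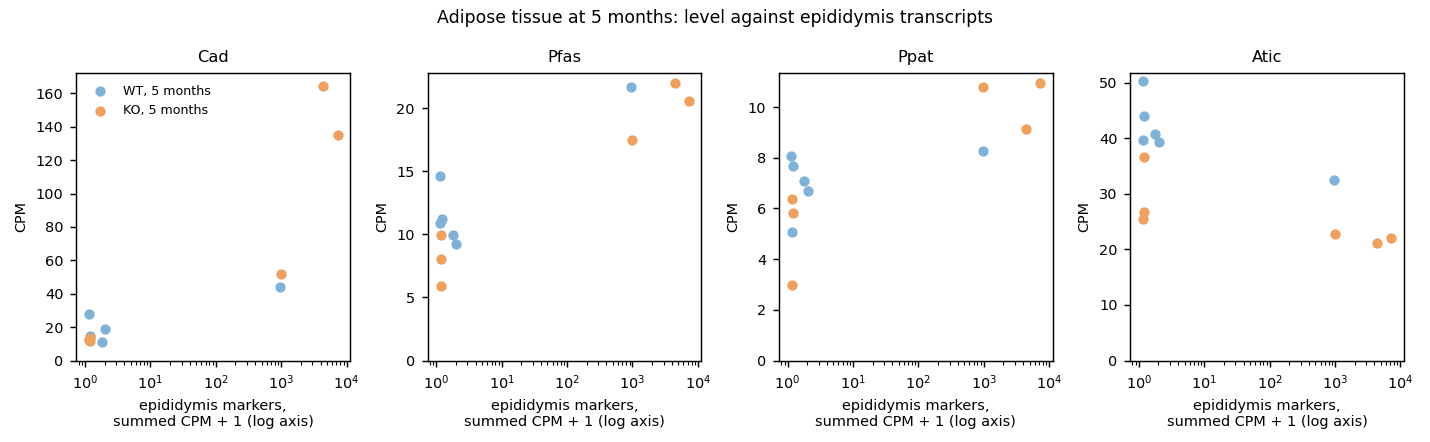
CPM of Cad, Pfas, Ppat and Atic in the 12 young adipose libraries against the summed CPM + 1 of the epididymis transcripts (log axis), by genotype. Cad is at 43.8 to 164 CPM in the 4 libraries with such transcripts and at 11.3 to 27.99 CPM in the other 8.

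The remaining genes of young adipose tissue were Paics (81.1 ± 16.6 in KO and 99.3 ± 28.2 CPM in WT, log2 difference −0.27, SE 0.162, adjusted p = 0.516), Impdh2 (44.3 ± 11.05 and 52.6 ± 19.9 CPM, −0.21) and Dhodh (6.67 ± 1.87 and 8.97 ± 2.81 CPM, −0.37). Of the 3 genes with an E-box in the promoter window, Atic was called and Paics and Impdh2 were not. In adipose tissue at 20 months none of the 10 genes was called, beside 0.0% of all genes. None had an unadjusted p under 0.05, against 2.25% of all genes, and edgeR and DESeq2 called none. Atic was at 35.7 ± 3.69 CPM in KO and 34.4 ± 0.953 CPM in WT (SD, n = 5 and 5), a log2 difference of 0.05 (SE 0.134). The 10 log2 differences ran from −0.21 to 0.06.

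In liver, where Myc itself fell at 5 months to the lowest levels of the 3 young KO tissues, none of the 10 genes was called at either age. The share of all genes called was 0.0696% at 5 months and 0.0232% at 20 months. At 5 months 9 of 10 genes had a log2 difference below 0, with a median log2 difference of −0.15 against 0.01 over all genes. 2 had an unadjusted p under 0.05, beside 6.94% of all genes. Atic was at lowest 24.5, median 32.2 and highest 39.2 CPM in KO and at lowest 34.1, median 39.5 and highest 51.2 CPM in WT, so 4 of 6 KO libraries lay below every WT library. Its log2 difference was −0.31 (SE 0.126, limma adjusted p = 0.621). Impdh2 was at 45.6 ± 6.56 CPM in KO and 58.5 ± 15.8 CPM in WT, a log2 difference of −0.32 (adjusted p = 0.645). Cad was the gene of the set above 0, at 0.17. At 20 months 9 of 10 log2 differences were again below 0, with a median of −0.10, and none had an unadjusted p under 0.05, against 5.8% of all genes. Ppat had the largest of these differences, at 12.9 ± 1.16 CPM in KO and 17.5 ± 5.67 CPM in WT (log2 difference −0.37, SE 0.179, adjusted p = 0.842), where WT library W18L04 alone stood at 26.9 CPM. edgeR and DESeq2 called none at either age.

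In muscle none was called at 5 months, beside 0.0% of all genes, or at 20 months, beside 0.0302%. At 5 months none had an unadjusted p under 0.05 (4.1% of all genes), and the log2 differences ran from −0.34 for Ppat to 0.06 for Pfas. At 20 months 2 genes had one, beside 13.8% of all genes. The 5 KO libraries held 5.71, 7.11, 5.43, 6.17 and 8.37 CPM of Umps and the 5 WT libraries 8.997, 10, 7.95, 8.40 and 8.53 CPM. 4 of 5 KO libraries lay below every WT library. The Umps log2 difference was −0.38 (SE 0.132, limma adjusted p = 0.295). Ppat was at 32.1 ± 6.81 CPM in KO and 43.5 ± 12.2 CPM in WT, with overlapping groups (log2 difference −0.41, SE 0.194, adjusted p = 0.361). edgeR and DESeq2 called none at either age. Across the 6 comparisons, 7, 6, 9, 9, 7 and 8 of the 10 had a log2 difference below 0, in the order adipose tissue at 5 and 20 months, liver at 5 and 20 months, and muscle at 5 and 20 months, with medians of −0.26, −0.06, −0.15, −0.10, −0.09 and −0.12. The medians over all genes were −0.04, 0.01, 0.01, 0.01, 0.01 and −0.03. The 10 genes share their libraries, so these counts are no independent repeats.

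**Figure D4:**
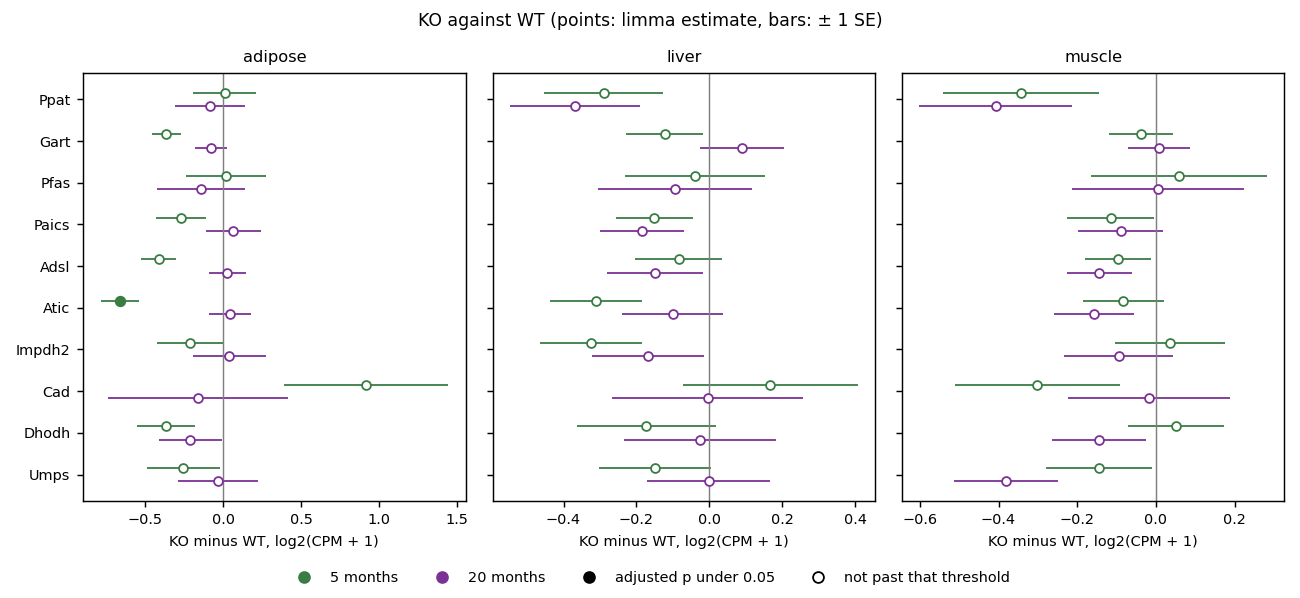
Log2 difference KO minus WT of each gene with its standard error, by tissue and age, on the log2(CPM + 1) scale; filled points have an adjusted p under 0.05. Atic in young adipose tissue, at −0.66, is the filled point, and most other points lie below 0 by less than 0.5.

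The next comparison was between ages within a genotype. The called genes fell with age in WT adipose tissue and in liver, and rose in WT muscle and, for Atic, in KO adipose tissue. Without the Xist libraries none of the WT calls was left. Whether the change with age differs between tissues was not tested. In WT adipose tissue 2 of the 10 were called, both lower at 20 months, beside 10.8% of all genes. Impdh2, the entry to GMP synthesis, was at lowest 35.0, median 43.7 and highest 84.2 CPM at 5 months and at 30.1, 26.9, 26.5, 24.7 and 27.8 CPM at 20 months. No older library reached the lowest young library, and young libraries W5F5041 (70.2) and W5F5042 (84.2 CPM) stood well above the other 4, at 35.0 to 46.7 CPM. The means were 52.6 ± 19.9 and 27.2 ± 1.97 CPM (SD, n = 6 and 5), a log2 difference of −0.85 (SE 0.224, limma adjusted p = 0.0206). Adsl was at lowest 23.4, median 24.5 and highest 29.9 CPM at 5 months and at 18.8, 19.1, 19.3, 20.5 and 20.4 CPM at 20 months, also without overlap. Over all genes 11.7% had no overlap between the ages in WT. The means were 25.8 ± 2.69 and 19.6 ± 0.788 CPM (log2 difference −0.38, SE 0.116, adjusted p = 0.0412).

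Libraries W5F5041 and W5F5042 were the young WT adipose libraries with Xist, and no older library held more than 0.33 CPM of it. Without the Xist libraries, Impdh2 had a log2 difference of −0.55 (adjusted p = 0.115) and Adsl −0.41 (0.0583). The Impdh2 call was lost without W5F5041 (adjusted p = 0.055) or W5F5042 (0.0545) alone, and the Adsl call without any of 9 single libraries (0.0622 to 0.0908), all but WT W5F5005 and W5F5299. Markers of other cells moved with age in this tissue. Of 7 T cell and 7 B and plasma cell markers 6 each were higher at 20 months in WT, with summed levels of 6.71 to 17.9 against 20.3 to 75.0 CPM and of 27.04 to 114 against 88.4 to 395 CPM. Their part in the differences was not tested.

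In KO adipose tissue 1 of the 10 was called between ages, beside 14.2% of all genes. Atic rose from lowest 21.1, median 24.1 and highest 36.6 CPM at 5 months to 34.7, 41.7, 32.9, 36.3 and 32.7 CPM at 20 months. Each older library lay above 5 of the 6 young ones. The means were 25.8 ± 5.73 and 35.7 ± 3.69 CPM, a log2 difference of 0.47 (SE 0.129, adjusted p = 0.0216). It shares its young KO libraries with the KO comparison above and is no separate evidence on them. Without the 3 young libraries with epididymis transcripts it was 0.27 (adjusted p = 0.140), and the call was also lost without KO library K18F26 (0.0546), K18F29 (0.0536) or K5F4284 (0.057). That exclusion changed other genes as well: Impdh2 fell by 0.82 on the log2 scale (adjusted p = 0.0332, and −0.60 with 0.0718 over all libraries), Umps fell by 0.74 (0.0295) and Pfas rose by 0.56 (0.0484, and −0.07 over all libraries). The exclusion left young KO library K5F4285 and Xist libraries K5F5116 and K5F5118, against older libraries that were all male. In young WT adipose tissue, Impdh2 had a mean of 77.2 CPM with and 40.3 CPM without Xist, and Umps 33.6 and 18.97 CPM. In young KO adipose tissue these were 48.98 and 41.9 CPM, and 24.4 and 18.7 CPM. The part of sex in these values was not tested. Cad went from −1.07 (adjusted p = 0.184) to 0.41 (0.170), although edgeR (−2.004, 0.0294) and DESeq2 (−2.03, 0.00307) called its fall over all libraries, beside 15.8% and 23.1% of all genes. Impdh2 was also called without KO library K18F28 (0.0478) or K5F5218 (0.0161).

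In liver the fall of Paics, the most abundant of the set, was called in both genotypes. WT libraries held lowest 253, median 287 and highest 321 CPM at 5 months and 207, 232, 178, 257 and 199.9 CPM at 20 months. 4 of 5 older libraries lay below every young one. The means were 288 ± 30.1 and 215 ± 30.3 CPM, a log2 difference of −0.43 (SE 0.111, adjusted p = 0.0234). KO libraries held lowest 229, median 255 and highest 315 CPM at 5 months and 175, 189, 198, 212 and 166 CPM at 20 months, with no overlap, as 3.84% of all genes had none. The means were 259.8 ± 34.0 and 188 ± 18.3 CPM, a log2 difference of −0.46 (SE 0.111, adjusted p = 0.0276). Gart in WT liver was at lowest 40.8, median 53.3 and highest 59.8 CPM at 5 months and at 48.3, 37.2, 34.1, 39.7 and 38.4 CPM at 20 months. Again 4 of 5 older libraries lay below every young one. It fell from 52.2 ± 6.46 to 39.5 ± 5.30 CPM (log2 difference −0.39, SE 0.111, adjusted p = 0.0336). In KO liver it was at 47.8 ± 4.95 and 42.05 ± 5.02 CPM and was not called (adjusted p = 0.373). So 2 of 10 were called in WT liver, beside 7.19% of all genes, and 1 of 10 in KO liver, beside 2.99%. The median log2 difference of the 10 was −0.29 in WT and −0.20 in KO, against −0.01 and −0.02 over all genes. Umps, the last pyrimidine enzyme, did not follow: it was at 29.99 ± 7.36 and 32.4 ± 4.25 CPM in WT liver, a log2 difference of 0.13. The summed level of the 10 genes was 549.8 ± 48.4 CPM in young and 433 ± 37.8 CPM in older WT liver, and 488.5 ± 39.1 and 394 ± 25.8 CPM in KO liver. These sums are on the deposited scale, whose mean total per library was also lower in older liver. That total was 1.49 M in young and 1.29 M in older WT liver, and 1.44 M and 1.25 M in KO liver.

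The liver values depend on the scale. On plain CPM, Paics had a log2 difference of −0.21 in WT (adjusted p = 0.189) and −0.26 in KO (0.151) and Gart of −0.18 in WT (0.327), and none was called. The median of all genes moved by 0.19 in WT and 0.18 in KO between the scales. Relative to that median, Paics stood at −0.41 and −0.39 in WT and at −0.44 and −0.41 in KO on the deposited and the plain scale, and Gart at −0.38 and −0.36 in WT. Subtracting the median removes most of the scale shift by construction, so the nearness of these values is no check of the falls. In WT, Impdh2 was called without young library W5L5299 (−0.43, 0.0453) and not with it (−0.32, 0.178). Without the Xist libraries the WT values were −0.37 for Paics (adjusted p = 0.110) and −0.32 for Gart (0.159). The Paics call was lost in WT without library W18L03 (0.0727), W18L05 (0.0646) or W5L5041 (0.0525), and in KO without K18L06 (0.0737), K18L07 (0.0564), K18L10 (0.0909), K5L4284 (0.0618) or K5L4285 (0.0625). The Gart call was lost without any of 7 libraries (W18L02, W18L03, W18L04, W18L05, W5L5004, W5L5041 and W5L5042, 0.0622 to 0.0900). Of 7 hepatocyte markers 3 were lower in older WT and 1 in older KO liver, and of 7 macrophage markers 2 and 1. The summed hepatocyte markers were at 114763 to 216845 CPM in young and 106805 to 126639 CPM in older WT liver, and the summed macrophage markers at 168 to 468 and 160.4 to 251 CPM. In KO liver the hepatocyte markers were at 105211 to 173937 CPM in young and 112672 to 135927 CPM in older libraries. The macrophage markers were at 313 to 567.8 CPM in young and 206 to 270.2 CPM in older KO libraries, with no overlap, and all 7 had a log2 difference below 0. Their part in the result was not tested.

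In WT muscle 3 of the 10 were called and all were higher at 20 months, beside 18.6% of all genes. Ppat, the first enzyme of the purine route, was at lowest 17.6, median 24.8 and highest 35.6 CPM at 5 months and at 30.03, 49.0, 33.6, 60.3 and 44.5 CPM at 20 months. 3 of 5 older libraries lay above every young one. The means were 25.2 ± 6.44 and 43.5 ± 12.2 CPM, a log2 difference of 0.76 (SE 0.186, adjusted p = 0.0113). No single library decided this call, and without the Xist libraries it was 0.58 (adjusted p = 0.0842). Umps was at lowest 5.09, median 6.06 and highest 8.29 CPM at 5 months and at 8.997, 10, 7.95, 8.40 and 8.53 CPM at 20 months, so 4 of 5 older libraries lay above every young one. It rose from 6.27 ± 1.18 to 8.77 ± 0.780 CPM (log2 difference 0.44, SE 0.126, adjusted p = 0.0231). Pfas was at lowest 14.2, median 16.6 and highest 36.6 CPM at 5 months and at 22.7, 33.2, 26.9, 33.5 and 36.5 CPM at 20 months. Young library W5S5277 (36.6 CPM) overlapped the older ones. The Pfas log2 difference was 0.63 (SE 0.210, adjusted p = 0.0438), which edgeR (0.0725) and DESeq2 (0.054) did not call. Without older library W18S42, which held hepatocyte transcripts, 1 of the 3 calls was left, that of Ppat, and Umps had an adjusted p of 0.0661. The Pfas call was lost without any of 8 libraries (W18S42, W18S45, W18S66, W18S72, W5S5004, W5S5007, W5S5041 and W5S5042, 0.0582 to 0.0994). Without the Xist libraries Umps was at 0.39 (0.09996) and Pfas at 0.49 (0.208), and none was called. Of the macrophage markers 2 of 5 tested were lower at 20 months, with a summed level of 66.01 to 222 CPM in young and 36.4 to 117 CPM in older WT muscle, and their part in the result was not tested.

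In KO muscle none was called between ages, beside 5.57% of all genes. 2 had an unadjusted p under 0.05, beside 25.6% of all genes. Ppat was at 21.7, 19.9, 17.9 and 17.3 CPM at 5 months and at 24.03, 32.7, 26.5, 37.8 and 39.6 CPM at 20 months, and the groups did not overlap, as 15.8% of all genes did not. Its log2 difference was 0.69 (SE 0.206, adjusted p = 0.0520). edgeR and DESeq2 each called it, beside 6.38% and 10.8% of all genes, as did limma without KO library K18S48 (adjusted p = 0.0383). K18S48 stood apart from the other muscle libraries, with 104.8 CPM of summed proliferation markers against at most 27.7 and 2161 CPM of summed erythroid markers against at most 1116, and their part in the Ppat value was not tested. Pfas was at 20.2 ± 3.11 and 31.1 ± 7.82 CPM (log2 difference 0.57, SE 0.233, adjusted p = 0.136). The other 8 genes of muscle stayed within log2 differences of −0.13 and 0.32 in KO. Gart, for one, was at 64.1 ± 3.97 and 66.2 ± 6.51 CPM, a log2 difference of 0.04.

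**Figure D5:**
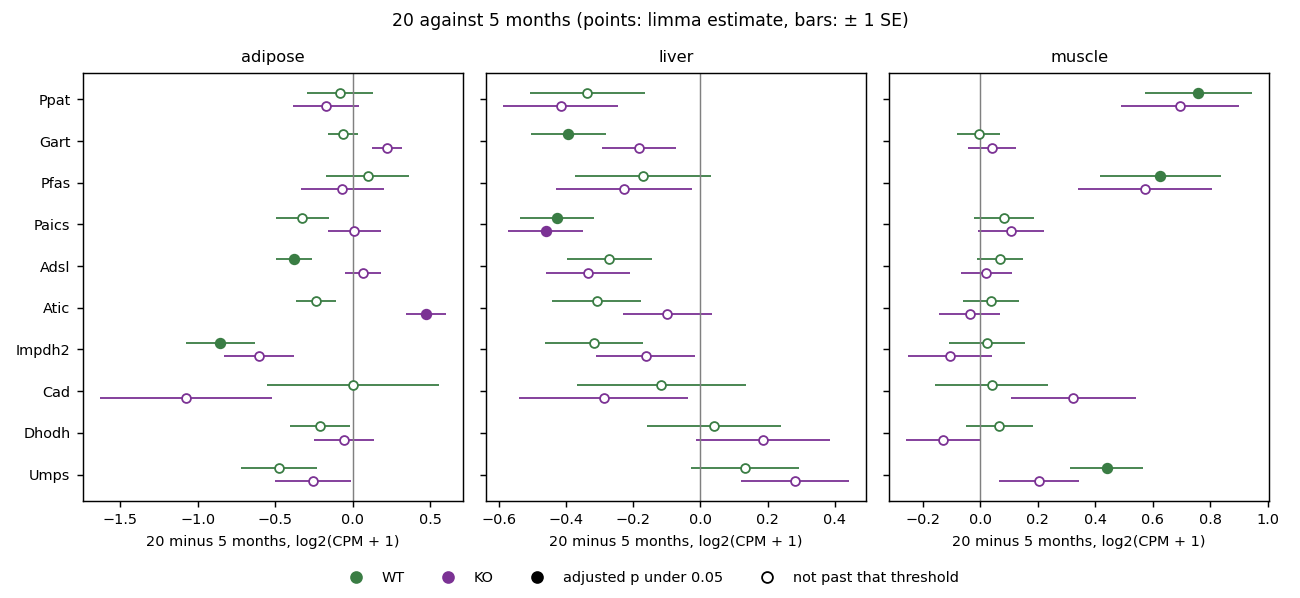
Log2 difference 20 minus 5 months of each gene with its standard error, by tissue and genotype, on the log2(CPM + 1) scale; filled points have an adjusted p under 0.05. Paics in liver lies at −0.43 in WT and −0.46 in KO, and Ppat in muscle at 0.76 and 0.69, with the KO value of Ppat not filled.

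Whether the KO difference changed between ages was tested as an interaction of genotype and age. None of the 10 genes was called in any tissue, beside 0.0% of all genes in each (0.0% for adipose tissue, 0.0% for liver and 0.0% for muscle), and edgeR and DESeq2 called none. In adipose tissue 3 had an unadjusted p under 0.05, beside 2.85% of all genes: Atic (0.71, SE 0.182), Adsl (0.44, SE 0.163) and Gart (0.29, SE 0.136), each with a limma adjusted p of 0.998. The positive sign means that the KO value lay nearer to or above WT at 20 months. The interaction contains the young KO and WT difference for which these genes are named above. In liver and in muscle none had an unadjusted p under 0.05, beside 3.92% and 3.31% of all genes. The call for Atic in young adipose tissue and its absence in older adipose tissue are therefore not shown to differ.

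The other genes of nucleotide metabolism were taken from 7 lists with 72 genes in all: supply of the activated ribose PRPP, the AMP, GMP and CTP branches, nucleotide kinases, synthesis of dNTP and dTMP, salvage, breakdown, and folate one-carbon donors. Of these, adipose tissue had 67 that were tested, liver 69 and muscle 63. None was called between KO and WT in any tissue at either age, and none in the interactions. Between ages, 2 were higher and 3 lower in WT adipose tissue, 4 and 3 in KO adipose tissue, 3 and 8 in WT liver, 0 and 1 in KO liver, 7 and 4 in WT muscle, and 1 and 1 in KO muscle. The called share of the listed genes was 7.46% in WT adipose tissue, 10.4% in KO adipose tissue, 1.45% in KO liver, 17.5% in WT muscle and 3.17% in KO muscle, each below that of all genes (10.8%, 14.2%, 2.99%, 18.6% and 5.57%). In WT liver it was 15.9%, above the 7.19% of all genes. The genes named next are examples by size of change, and nothing particular to nucleotide metabolism is read from them. Their values are from the limma fit over all libraries on the deposited scale. Values on plain CPM, without the Xist libraries or without single libraries are not given for them. Gmps, which makes GMP from the product of Impdh2, fell with age in WT adipose tissue from 34.6 to 21.6 CPM (log2 difference −0.61, adjusted p = 0.036) and in KO adipose tissue from 37.4 to 21.9 CPM (−0.71, 0.0156). In KO liver it fell by 0.38 (adjusted p = 0.0372). In WT adipose tissue the salvage kinases Uck1 (−0.97, adjusted p = 0.00821) and Adk (−0.82, 0.0355) fell with age, and Samhd1 (0.74, 0.0101), which degrades dNTP, and Rrm2b (0.52, 0.0344), a ribonucleotide reductase subunit, rose.

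In WT liver the salvage enzymes Aprt (−1.09, adjusted p = 0.00349) and Uck2 (−0.85, 0.00246) and 3 folate genes fell with age beside Paics and Gart: Aldh1l1 (−0.86, 0.0250), Mthfd1 (−0.40, 0.0246) and Mthfs (−0.41, 0.0413). These falls are on the deposited scale, and the calls of Paics and Gart were lost on plain CPM. Among all genes called there, 366 rose and 563 fell on the deposited scale, against 1121 and 204 on plain CPM. Mthfd1 makes the formyl-folate that Gart and Atic use. Prps2, a PRPP synthetase, rose from 11.98 to 21.6 CPM (0.83, adjusted p = 0.0168), and so did Gda (0.94, 0.00128), which deaminates guanine. In WT muscle, where Ppat, Pfas and Umps rose, the PRPP list gained Prpsap2 (0.53, 0.00813) and Prps1l3 (0.36, 0.0377), and the ribonucleotide reductase genes Rrm2b (0.70, 0.00509) and Rrm1 (0.41, 0.0145) also rose. Xdh (−1.001, 0.0140), which makes uric acid, and Nt5e (−0.82, 0.0130) fell. The AMP deaminase Ampd3 had the largest fall (−2.35, 0.0307), from 200.4 ± 165 to 43.1 ± 57.3 CPM (SD, n = 6 and 5), with wide spread in both groups. In KO muscle Rrm1 rose (0.43, 0.0390) and Shmt2 fell (−0.37, 0.0344).

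Between tissues, the partners of Adsl in the purine nucleotide cycle had its pattern. The cycle turns IMP into AMP with adenylosuccinate synthase (Adssl1) and Adsl and returns it with AMP deaminase (Ampd1). Adssl1 was at 1240.2 ± 138 CPM in young WT muscle, 25.8 ± 6.23 in liver and 8.58 ± 5.59 in adipose tissue. For liver against muscle its log2 difference was −5.56 (adjusted p = 1.57e-13), beside the shift of −0.23 between the scales. Ampd1 was at 958 ± 128 CPM in muscle, at most 0.176 CPM in any young WT liver library and at most 4.72 CPM in any young WT adipose library. Liver held the breakdown enzyme of uric acid, Uox, at 1816 ± 506 CPM and the folate enzyme Shmt1 at 183 ± 26.4 CPM, against 5.65 ± 1.71 CPM of Shmt1 in muscle.

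How the 10 genes varied among themselves was described over the 64 libraries after subtraction of each group's mean of log2(CPM + 1). Pooled over the tissues, each gene was weakly related to the mean of the other 9, with Pearson r from −0.03 for Impdh2 to 0.33 for Pfas. In that pool the genes did not move as one block from library to library. The values differed by tissue. In adipose tissue r ran from −0.32 (Umps) to 0.48 (Ppat). In liver it ran from −0.23 (Ppat) to 0.46 (Gart), with all but Ppat above 0. In muscle it ran from −0.40 (Impdh2) to 0.70 (Ppat), with all but Impdh2 above 0. Over all 64 libraries, the pairs with the highest r were Pfas with Cad (0.74), Gart with Adsl (0.58), Umps with Impdh2 (0.56), Ppat with Pfas (0.55) and Paics with Impdh2 (0.51). Paics with Cad (−0.44) and Pfas with Impdh2 (−0.43) had the lowest. Some of the high pairs differed by tissue. In adipose tissue, liver and muscle, Umps with Impdh2 was at 0.785, 0.557 and −0.406, and Ppat with Pfas at 0.76, 0.02 and 0.71. Paics with Impdh2 was at 0.72, 0.18 and 0.26. Pfas with Cad and Gart with Adsl were above 0 in each tissue. The libraries share their tissue, scaling factor and, in young adipose tissue, the epididymis transcripts, so these values carry no p. Among 8074 other genes whose mean reached 5 CPM in every tissue, those most like the mean of the 10 were Lman2 (0.66), Rbm10 (0.61), Shld2 (0.60), Lsm14b (0.59) and Patz1 (0.58), where the median over those genes was 0.02 and the 95th percentile 0.33. Myc itself had an r of −0.28 with the mean of the 10 over all libraries, and of −0.01, −0.07 and −0.70 within the adipose, liver and muscle libraries.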

How the data were processed

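RNA of omental adipose tissue, liver and skeletal muscle was sequenced from poly-T selected, strand-marking libraries, per the labels' protocols. The deposited values are a normalized signal that the file header calls CPM, aligned to GRCm38.p6/mm10 per the submitters' processing notes. The aligner, the counter and its use of strand are not given in the sources used here. The deposited signal sums to 0.53 to 1.64 M per library. Its values were whole multiples of 1 step per library (100.0% whole within 0.05), which gave back 15.4 to 28.5 M reads per library.

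Groups follow the labels. limma 3.58.1 (R 4.3.3, trend) was fitted on log2(CPM + 1) with the 4 groups of a tissue, or the 3 young WT groups, over genes above 1 CPM in a number of libraries no smaller than the smallest group, with Benjamini-Hochberg adjustment over all 14286, 12924 and 13237 genes (adipose tissue, liver, muscle) or 15157, 15071 and 14733 (tissue pairs). The log2 scale understates changes of low genes. edgeR 4.0.16 and DESeq2 1.42.0 on the recovered reads were alternatives. edgeR called 1 gene of the set, and DESeq2 3, in the one KO comparison with a call. Other alternatives were a pseudocount of 0.1, no filter, plain CPM (each library scaled to one total), fits of the compared groups alone, a sex covariate, a block by code number, and fits without the Xist, epididymis or each single library. The fit without muscle library W5S5299 for its epididymis transcripts was added after seeing the data. Fits were tested on simulated data. No pair of replicates agreed within sampling noise (lowest chi-square per degree of freedom 13.5).

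The members and lists were chosen with earlier results of these data known. Named are the 10 genes, Myc, at most 4 called genes of each other nucleotide list and comparison, those with the largest log2 difference, and the 5 genes most like the mean of the 10. Ampd1, Uox and Shmt1 levels, the marker genes Alb, Acta1 and Adipoq and Xist were added as checks or examples. Lengths are those of the principal transcript in GENCODE, and promoters are RefSeq's.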

Additional observations from a re-analysis of the deposited data

Results flagged for a closer look

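In 4 of the 120 groups of a gene in a tissue, age and genotype, the highest or lowest library stood apart from its neighbour by more than Dixon's 95% limit. Chance alone gives such a library in about 1 in 20 groups. Pfas in young WT muscle library W5S5277 was at 36.6 CPM, with the next library at 22.05 CPM. Atic in young KO adipose library K5F5116 was at 36.6 CPM, with the next at 26.7 CPM. Atic in young WT muscle library W5S5041 was low at 27.3 CPM, with the next at 34.5 CPM. Dhodh in KO liver library K18L09 at 20 months was at 11.8 CPM, with the next at 7.91 CPM. The Pfas library is the one that overlaps the older WT muscle libraries, and the Atic library of adipose tissue is the one that overlaps WT.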

How the results depend on the processing

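Of the 180 results of a gene in a comparison, 26 were called and 154 were not, and of the uncalled ones 62 changed sign and 18 were called under some alternative. Counts of the 10 genes called moved as follows, with all genes called in brackets. Between KO and WT in young adipose tissue (1 [15]), DESeq2 gave 3 [304], the fit without Xist libraries 3 [534], the 2 groups alone 0 [2] and the fit without epididymis libraries 0 [18]. Between ages in WT adipose tissue (2 [1539]), plain CPM gave 1 [1587], the sex covariate 0 [869] and the fit without Xist libraries 0 [709]. In KO adipose tissue (1 [2033]), plain CPM gave 2 [1611], the sex covariate 2 [1866], the fit without Xist libraries 2 [3277], edgeR 3 [2262], DESeq2 3 [3297], the fit without epididymis libraries 3 [2571] and the 2 groups alone 0 [840]. In WT liver (2 [929]), plain CPM gave 0 [1325], the 2 groups alone 0 [420], the fit without Xist libraries 0 [414] and the sex covariate 1 [828]. In KO liver (1 [386]), plain CPM gave 0 [599] and the 2 groups alone 0 [179]. In WT muscle (3 [2463]), the 2 groups alone gave 1 [1112], the sex covariate 1 [1978] and the fit without Xist libraries 0 [855]. In KO muscle (0 [737]), plain CPM gave 1 [1217], edgeR 1 [844], DESeq2 1 [1434] and the 2 groups alone 1 [1778]. For adipose tissue against liver (3 [10874]), plain CPM gave 10 [13287].

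Without W5S5299, WT muscle kept a count of 3. Leaving out single libraries gave 0 to 1 between KO and WT in young adipose tissue and 0 in the other KO comparisons and the interactions. Between ages it gave 0 to 2 in WT and in KO adipose tissue, 0 to 3 in WT liver, 0 to 1 in KO liver, 1 to 3 in WT muscle and 0 to 1 in KO muscle. Between tissues it gave 3 to 5 for adipose tissue against liver, 5 to 7 for adipose tissue against muscle and 6 for liver against muscle.

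On plain CPM, adipose tissue against liver turned to 0.94 for Impdh2, 1.06 for Adsl, 0.76 for Umps and 0.63 for Gart, and adipose tissue against muscle to 0.53 for Paics, 0.30 for Dhodh, 0.62 for Impdh2, 0.23 for Pfas and 0.0286 for Gart. Pfas between ages in KO adipose tissue turned to 0.56 without the epididymis libraries. Apart from the scale factor and the smaller number of libraries, the cause was not tested.

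With a replicate block by code number, the tissue comparisons called 4, 7 and 6 genes in place of 3, 7 and 6, with Cad added for adipose tissue against liver (consensus correlation 0.118). Across tissues, 14 young WT pairs with the same number had r of −0.11 to 0.43 (median 0.20), above 0.1 in 12, against a median of −0.06 in 94 pairs with different numbers. The Xist libraries had the same 4 numbers in each tissue. Libraries W5F5299 and W5S5299, with the same number, both held epididymis transcripts. The labels do not say that a number marks 1 mouse, so the fit without the block was kept. Its p-values ignore any such pairing, and the 2 pairs below 0.1 do not decide whether there is one. Between KO and WT, and between ages, no paired analysis was possible because these groups share no code number.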
